A study of Homo sapiens with 6 samples.

Results

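The NRF2 targets and aldo-keto reductases described here are the genes NQO1, HMOX1, GCLC, GCLM, TXNRD1, SRXN1, AKR1B1, AKR1B10, AKR1C2 and AKR1C3. Their members were every probe set whose single gene symbol in the array annotation is one of these genes, which gave 18 of 54613 probe sets, for 9 of the 10 genes. AKR1B1 was not analysed here. The study compared MCF10A cells with C/EBPbeta-2 (3 arrays) and MCF10A cells without it (3 arrays, called control here). MCF10A is an immortalized, non-tumorigenic mammary epithelial cell line, and C/EBPbeta-2 is one isoform of the factor that the gene CEBPB encodes. All cells grew in medium with 5% horse serum, insulin, hydrocortisone, epidermal growth factor and cholera toxin, and the labels record no further treatment. The means of introducing C/EBPbeta-2, and whether the cells were 1 clone or a pool, were not stated in the labels. The samples of a group are labelled as biological replicates, but not what set them apart, so each p-value measures only the spread between these arrays. All values are log2 intensities of Affymetrix probe sets, and the 6 array medians lay between 4.46 and 4.56.

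NRF2, the protein encoded by NFE2L2, is a transcription factor that the adaptor KEAP1 marks for degradation while cells are unstressed. Oxidants and electrophiles free NRF2 from KEAP1, and with a small MAF partner it then binds antioxidant response elements near genes for quinone reduction, glutathione synthesis and the thioredoxin system. Several human aldo-keto reductases, NADPH-dependent enzymes that reduce aldehydes and ketones, are also known NRF2 targets, and the AKR1C enzymes in addition convert steroid hormones and prostaglandins.

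The promoter sequences of 7 of the 9 genes were found in the RefSeq table of build GRCh38.p14, as 9 windows of 300 bases that run from 250 bases before to 50 bases after an annotated start. HMOX1 and AKR1B10 had no sequence used here. The core of the antioxidant response element, TGACNNNGC, was searched on both strands, as was the core of a C/EBP site, TTGCNNAA. The antioxidant core stood in 3 of the 9 windows, those of GCLM and both starts of TXNRD1, and in 13.3% of all 35116 promoter windows in the table. The C/EBP core stood in 1 of the 9, that of GCLC, and in 10.5% of all windows. A match is a description of letters and not a site, and a window with no match says only that these letters are not in it. The windows with a match, except the first start of TXNRD1, are printed 5′ to 3′ with the match in capitals. In GCLM and TXNRD1 the match is the reverse complement of the antioxidant core. In GCLC it is the C/EBP core.
GCLM (chr1:93909381-93909680, minus strand): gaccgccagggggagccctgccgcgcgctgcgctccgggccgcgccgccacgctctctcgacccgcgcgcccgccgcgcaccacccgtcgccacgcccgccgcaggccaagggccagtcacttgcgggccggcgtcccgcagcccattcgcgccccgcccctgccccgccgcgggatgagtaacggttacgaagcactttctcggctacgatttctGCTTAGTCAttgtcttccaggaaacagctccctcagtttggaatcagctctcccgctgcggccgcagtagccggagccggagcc
TXNRD1 (chr12:104286782-104287081, plus strand): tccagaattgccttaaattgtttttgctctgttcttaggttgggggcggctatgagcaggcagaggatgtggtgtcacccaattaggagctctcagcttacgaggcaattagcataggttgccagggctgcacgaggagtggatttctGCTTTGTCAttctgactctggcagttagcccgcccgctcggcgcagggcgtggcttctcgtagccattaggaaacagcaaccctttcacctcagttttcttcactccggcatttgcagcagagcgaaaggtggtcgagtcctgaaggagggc
GCLC (chr6:53545052-53545351, minus strand): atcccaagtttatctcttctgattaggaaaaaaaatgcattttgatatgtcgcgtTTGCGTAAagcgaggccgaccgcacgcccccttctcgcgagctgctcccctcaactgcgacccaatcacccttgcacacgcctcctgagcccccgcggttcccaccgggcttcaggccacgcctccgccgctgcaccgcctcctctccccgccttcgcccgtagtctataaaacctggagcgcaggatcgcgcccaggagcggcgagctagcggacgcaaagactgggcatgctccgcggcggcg

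The AKR1C genes lie beside each other on chromosome 10 and are close copies. Only their promoter windows were compared here. The transcript sequences that probes bind were not, so the identities below do not measure how far probe sets can be told apart. The AKR1C1 and AKR1C2 windows were identical at 288 of 292 aligned bases (98.6%), and those of AKR1C2 and AKR1C3 (its first start) at 220 of 283 (77.7%). The windows of AKR1C2 and AKR1C3 held neither core. The 3 windows are given with capitals marking each base, between the first and last aligned base, that differs from or is absent in the paired window: AKR1C1 against AKR1C2, AKR1C2 against AKR1C1, and AKR1C3 against AKR1C2. Bases beyond the ends of the alignment are in lower case.
AKR1C1 (chr10:4963165-4963464, plus strand): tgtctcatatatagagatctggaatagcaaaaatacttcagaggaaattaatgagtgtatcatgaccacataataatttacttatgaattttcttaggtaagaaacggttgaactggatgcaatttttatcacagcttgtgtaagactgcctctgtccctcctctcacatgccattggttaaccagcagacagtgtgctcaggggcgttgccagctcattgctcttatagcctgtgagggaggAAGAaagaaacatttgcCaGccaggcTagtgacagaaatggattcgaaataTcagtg
AKR1C2 (chr10:5003808-5004107, minus strand): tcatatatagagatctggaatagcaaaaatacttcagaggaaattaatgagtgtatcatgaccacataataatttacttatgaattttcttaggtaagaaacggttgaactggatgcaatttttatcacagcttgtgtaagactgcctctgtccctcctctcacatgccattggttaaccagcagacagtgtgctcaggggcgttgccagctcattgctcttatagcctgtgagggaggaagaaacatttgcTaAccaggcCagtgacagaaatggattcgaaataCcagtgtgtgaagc
AKR1C3 (chr10:5048531-5048830, plus strand): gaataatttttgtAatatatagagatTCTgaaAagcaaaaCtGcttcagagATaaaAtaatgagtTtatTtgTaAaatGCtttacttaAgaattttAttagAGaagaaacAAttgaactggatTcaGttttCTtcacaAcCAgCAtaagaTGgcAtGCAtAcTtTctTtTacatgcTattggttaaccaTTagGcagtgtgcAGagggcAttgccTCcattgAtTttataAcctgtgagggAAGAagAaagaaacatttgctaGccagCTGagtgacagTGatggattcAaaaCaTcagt

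The arrays varied in ways the groups did not explain. Spike-in RNA read low (3.85 and 3.98) in C/EBPbeta-2 replicate 2 and in control replicate 1, and high (7.21 to 8.25) on the remaining 4 arrays. The low pair also had the largest ACTB 3′ minus 5′ values (1.32 and 1.48, with -0.04 to 0.64 elsewhere). The 18S ribosomal RNA controls read highest, at 12.19 and 12.17, in C/EBPbeta-2 replicate 1 and in control replicate 2, with 5.62 to 10.33 elsewhere. Each such level holds arrays of both groups, so differences are also given within the 4 arrays of high spike level and, as 1 array against 1 with no test, within the low level. All 8 measured markers of mammary and basal epithelium lay above the array median on all 6 arrays, and 2 of them, KRT14 and CDH1, were called lower in C/EBPbeta-2 cells. The leukocyte marker PTPRC, the fibroblast marker LUM and the endothelial marker CDH5 lay below it on all 6, while 3 of 8 fibroblast markers lay above it, among them DCN (7.55 in C/EBPbeta-2 cells and 10.16 in control cells), as did 1 of 5 leukocyte markers (CD14) and 1 of 4 endothelial markers (PECAM1). The part of these markers in the results was not tested. CEBPB itself (212501_at) read 10.29, 10.50 and 11.38 in C/EBPbeta-2 cells and 11.27, 11.38 and 11.37 in control cells, which does not check the labels, because an introduced coding sequence need not hold the bases these probes bind.

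No member was called. AKR1C2 and AKR1C3 had the largest differences, reading 2.21-fold and 2.40-fold lower in C/EBPbeta-2 cells at their brightest probe sets, and SRXN1 was the one bright member that read higher. In bulk RNA, fewer cells that express a gene and less RNA per cell cannot be told apart. Limma called 0 of the 18 probe sets at an adjusted p under 0.05 (adjusted p 0.938 to 1.00), where it called 36 of all 54613 (0.0659%, of which 0.0275% higher and 0.0385% lower). At an unadjusted p under 0.05 there were 3 of 18, all of them lower and from AKR1C2 or AKR1C3, against 3.98% of all probe sets (2.06% lower). The groups did not overlap in 2 of the 18 (11.1%), again AKR1C2 and AKR1C3 and lower, against 7.62% of all probe sets (3.75% lower and 3.87% higher). The C/EBPbeta-2 mean was lower for 15 of 18 members and for 50.2% of all probe sets, and the median difference was -0.41 over the members and -0.0009 over all probe sets. Counted by gene at the brightest probe set, 7 of 9 had the lower mean in C/EBPbeta-2 cells, as had 48.1% of all genes. These counts are a description, since several members read the same gene and some AKR1C probe sets can bind related transcripts.

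**Figure D1:**
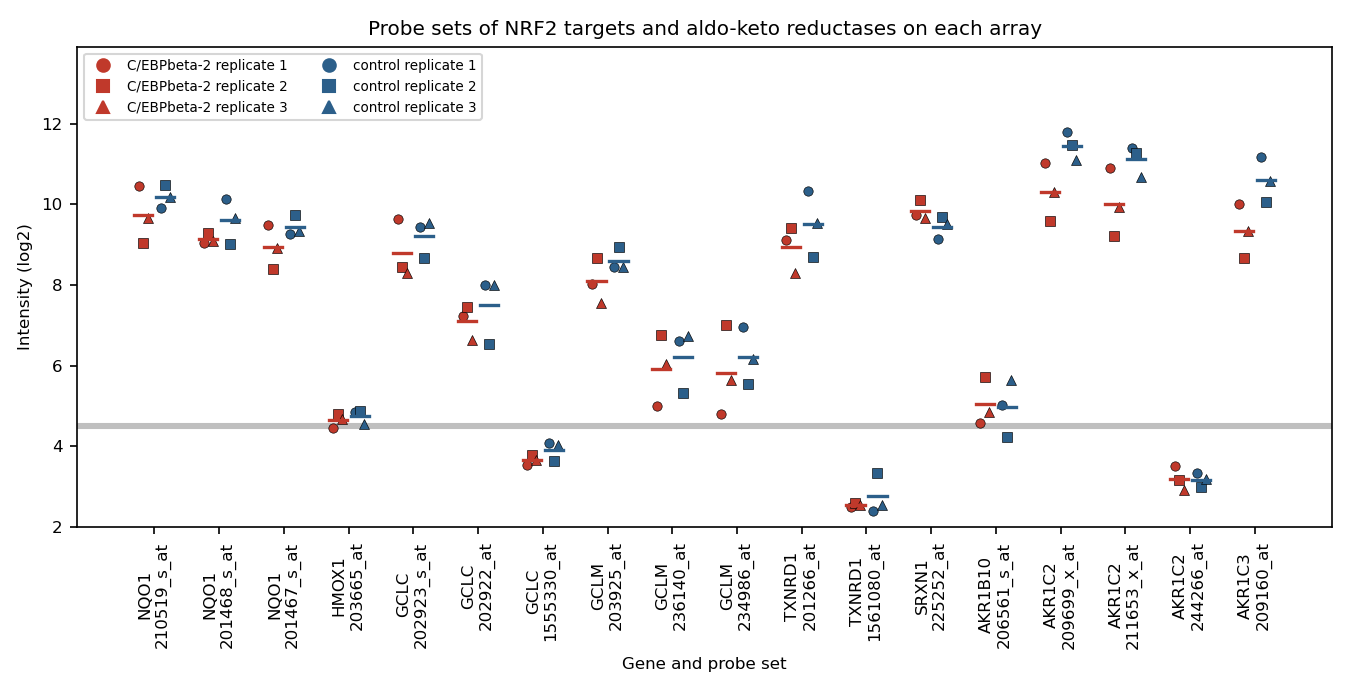
Log2 intensity (vertical axis) of each of the 18 member probe sets (horizontal axis) on the C/EBPbeta-2 arrays (red, left) and control arrays (blue, right), with a bar at each group mean and a grey band at the array medians. The groups are apart for AKR1C2 209699_x_at and AKR1C3 209160_at and overlap for the other 16, and 3 probe sets lie below every array median.

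AKR1C3, also known as type 5 17-beta-hydroxysteroid dehydrogenase and prostaglandin F synthase, was read by 1 probe set. It gave 10.01, 8.68 and 9.33 in C/EBPbeta-2 replicates 1 to 3 and 11.16, 10.06 and 10.59 in control replicates 1 to 3. Every C/EBPbeta-2 array lay below every control array, but the nearest pair, C/EBPbeta-2 replicate 1 and control replicate 2, were 0.05 apart. The mean was 9.34 ± 0.67 in C/EBPbeta-2 cells and 10.60 ± 0.55 in control cells (SD, n = 3 each), a log2 difference of -1.27 (SE 0.41, 95% interval -2.25 to -0.28, limma unadjusted p = 0.0193, adjusted p = 0.938). An exact two-sided permutation test gave p = 0.1, the smallest that 3 against 3 arrays can give. The difference was -0.66 at the high spike level and -2.49 at the low one. It ranged from -1.60 to -0.94 as each array was left out in turn.

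AKR1C2, a 3-alpha-hydroxysteroid dehydrogenase that inactivates dihydrotestosterone, was read by 3 probe sets, 2 bright and 1 dim. The brightest, 209699_x_at, gave 11.02, 9.59 and 10.30 in C/EBPbeta-2 cells and 11.80, 11.47 and 11.09 in control cells, with 0.06 between the groups. Its mean was 10.30 ± 0.72 in C/EBPbeta-2 cells and 11.45 ± 0.36 in control cells (SD, n = 3 each), a difference of -1.15 (SE 0.38, 95% interval -2.06 to -0.23, limma unadjusted p = 0.0218, adjusted p = 0.972). This difference was -0.62 at the high spike level and -2.21 at the low one, and -1.51 to -0.79 as each array was left out. The second, 211653_x_at, gave 10.90, 9.21 and 9.94 in C/EBPbeta-2 cells and 11.39, 11.28 and 10.68 in control cells. Here the groups overlapped, since C/EBPbeta-2 replicate 1 lay above control replicate 3, and the difference was -1.10 (SE 0.44, limma unadjusted p = 0.0432, adjusted p = 1.00). This second difference was -0.56 at the high spike level and -2.18 at the low one. The dim probe set 244266_at lay below every array median, at 3.52, 3.17 and 2.91 in C/EBPbeta-2 cells and 3.33, 2.98 and 3.20 in control cells, and had a difference of 0.03. For the AKR1C3 probe set and both bright AKR1C2 probe sets, C/EBPbeta-2 replicate 2 was the lowest array of all 6 and control replicate 1 the highest. These are the 2 arrays of low spike level, and the part of that level in the differences was not tested beyond the values given.

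The neighbouring gene AKR1C1, a 20-alpha-hydroxysteroid dehydrogenase that inactivates progesterone, read much like AKR1C2. Its probe set 204151_x_at gave 11.51, 10.12 and 10.88 in C/EBPbeta-2 cells and 12.10, 11.95 and 11.46 in control cells, a difference of -0.997 (SE 0.37, limma adjusted p = 1.00 over all probe sets). A second, 216594_x_at, gave 11.06, 10.02 and 10.55 in C/EBPbeta-2 cells and 11.88, 11.73 and 11.20 in control cells, a difference of -1.06 without overlap (SE 0.31, limma adjusted p = 0.800). Of its 3 dimmer probe sets, 217626_at differed by -0.52 and was lower without overlap, and the other 2 differed by -0.10 and 0.07. Probe sets ending in _x_at hold probes that can bind related transcripts, so the bright AKR1C1 and AKR1C2 readings cannot be told apart as separate genes. The AKR1C3 probe set carries no such suffix. Over the 6 arrays it correlated with the bright AKR1C2 probe sets at Pearson's r of 0.93 and 0.88, and the 2 AKR1C2 probe sets correlated with each other at 0.99.

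**Figure D2:**
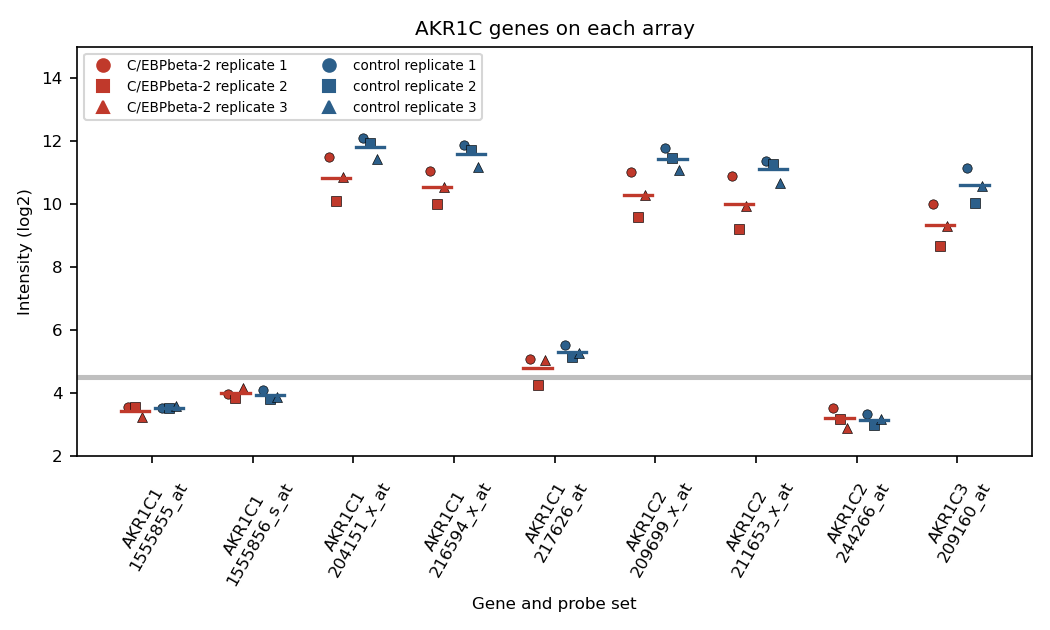
Log2 intensity (vertical axis) of every single-gene probe set of AKR1C1, AKR1C2 and AKR1C3 (horizontal axis) on the C/EBPbeta-2 arrays (red, left) and control arrays (blue, right), with bars at group means and a grey band at the array medians. The 5 bright probe sets have the same low array, C/EBPbeta-2 replicate 2, and C/EBPbeta-2 means about 1 log2 unit below the control means.

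AKR1B10, a reductase of retinal and lipid aldehydes, was dim, at 4.58, 5.71 and 4.86 in C/EBPbeta-2 cells and 5.03, 4.22 and 5.65 in control cells (206561_s_at). The groups overlapped widely and the difference was 0.09 (95% interval -0.97 to 1.14, limma adjusted p = 1.00), with a sign that turned at the high spike level (-0.21).

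Among the quinone and heme enzymes, NQO1, the NAD(P)H quinone reductase most often used as an NRF2 readout, had 3 bright probe sets, and HMOX1, the heme oxygenase that breaks heme down to biliverdin, had 1 near the array medians. NQO1 probe set 210519_s_at gave 10.46, 9.05 and 9.66 in C/EBPbeta-2 cells and 9.91, 10.48 and 10.19 in control cells. Probe set 201467_s_at gave 9.48, 8.40 and 8.92 in C/EBPbeta-2 cells and 9.26, 9.74 and 9.34 in control cells. Probe set 201468_s_at gave 9.04, 9.30 and 9.09 in C/EBPbeta-2 cells and 10.14, 9.01 and 9.67 in control cells. All 3 overlapped between groups, and their differences were near each other at -0.47, -0.52 and -0.46 in this order (95% intervals -1.35 to 0.41, -1.23 to 0.20 and -1.17 to 0.24, limma adjusted p = 1.00 each). Each interval spans 0 and reaches past a 2-fold lower level in C/EBPbeta-2 cells. As each array was left out, the difference ranged from -0.84 to -0.13 for 210519_s_at, from -0.79 to -0.25 for 201467_s_at and from -0.76 to -0.20 for 201468_s_at.

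The NQO1 probe sets ordered the arrays in different ways. Over the 6 arrays 210519_s_at and 201467_s_at correlated at 0.98, but 201468_s_at correlated with them at -0.14 and -0.06. The first pair followed the 18S control level (r = 0.92 and 0.87), and 201468_s_at did not (r = -0.46). With the ACTB 3′ minus 5′ value the first pair correlated at -0.77 and -0.70, and 201468_s_at at 0.68. These correlations describe 6 arrays that share their labelling and normalization. The part of the 18S level or of the ACTB value in them was not tested. HMOX1 (203665_at) gave 4.44, 4.81 and 4.66 in C/EBPbeta-2 cells and 4.84, 4.87 and 4.55 in control cells, with overlap and a difference of -0.12 (95% interval -0.53 to 0.30, limma adjusted p = 1.00). No detection calls were used here, so a level this near the array medians has no stated background.

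Glutathione synthesis begins with glutamate-cysteine ligase, whose catalytic subunit is encoded by GCLC and whose modifier subunit by GCLM. GCLC probe set 202923_s_at gave 9.63, 8.45 and 8.30 in C/EBPbeta-2 cells and 9.44, 8.66 and 9.55 in control cells, a difference of -0.42 (SE 0.42, limma adjusted p = 1.00). Probe set 202922_at gave 7.22, 7.46 and 6.63 in C/EBPbeta-2 cells and 8.0, 6.52 and 7.99 in control cells, a difference of -0.40 (SE 0.45, limma adjusted p = 1.00). Both overlapped between groups, with C/EBPbeta-2 replicate 3 and control replicate 2 at the low end of their groups. Over the 4 arrays of lower 18S level these differences were -1.12 and -0.96, without a call (limma adjusted p 0.350 and 0.871). As each array was left out they ranged from -0.84 to -0.17 and from -0.895 to -0.155. The dimmest GCLC probe set, 1555330_at, lay below every array median and differed by -0.26.

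For GCLM, probe set 203925_at gave 8.03, 8.67 and 7.55 in C/EBPbeta-2 cells and 8.43, 8.94 and 8.44 in control cells, a difference of -0.52 (95% interval -1.27 to 0.23, limma adjusted p = 1.00). It was -0.90 at the high spike level and 0.24 at the low one, and -0.81 to -0.25 as each array was left out. The 2 dimmer probe sets spread far more within groups: 236140_at ranged from 4.99 to 6.75 in C/EBPbeta-2 cells and from 5.31 to 6.73 in control cells, and 234986_at from 4.79 to 7.0 in C/EBPbeta-2 cells and from 5.53 to 6.96 in control cells. Their differences of -0.29 and -0.40 were smaller than their within-group SDs of 0.72 to 1.11. Both turned sign, to 0.18 and 0.10, without C/EBPbeta-2 replicate 1. Both ran against the 18S level over the 6 arrays (r = -0.81 and -0.90), while 203925_at did not follow it (r = -0.17). With the ACTB 3′ minus 5′ value they correlated at 0.77 and 0.88, and 203925_at at 0.01.

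**Figure D3:**
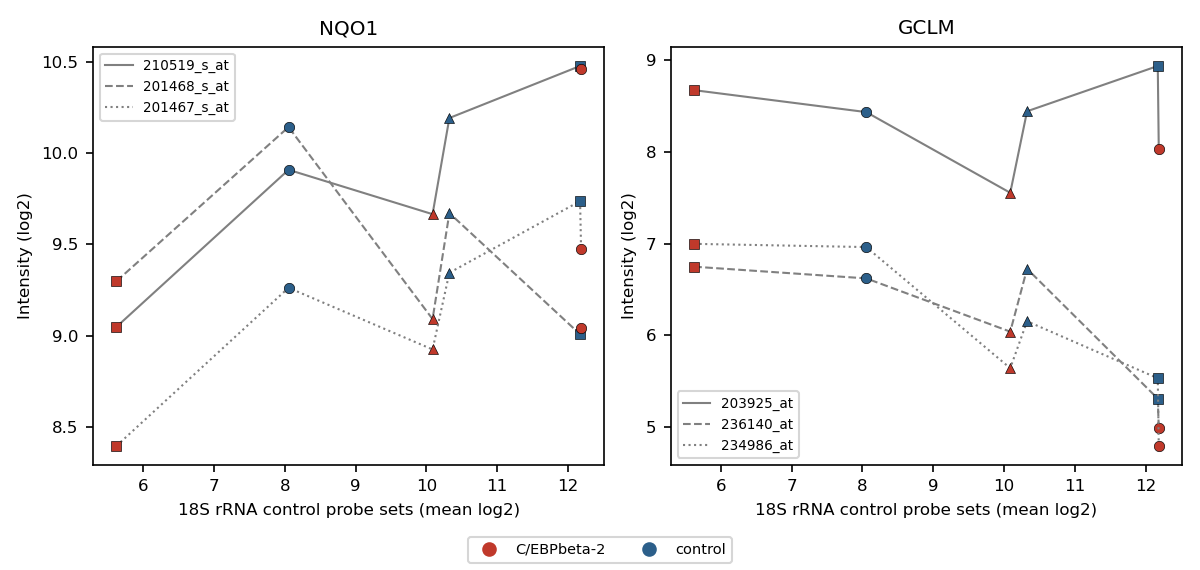
Log2 intensity of the 3 NQO1 (left) and 3 GCLM (right) probe sets (vertical axes) against the mean log2 of the 18S ribosomal RNA control probe sets (horizontal axes), 1 point per array, C/EBPbeta-2 arrays in red and control arrays in blue, with circles, squares and triangles for replicates 1, 2 and 3. Lines join the arrays of a probe set in order of 18S, and probe sets of 1 gene run in different directions.

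In the thioredoxin system, TXNRD1, the cytosolic thioredoxin reductase, and SRXN1, the sulfiredoxin that repairs over-oxidized peroxiredoxins, lay on opposite sides of 0. TXNRD1 probe set 201266_at gave 9.11, 9.40 and 8.29 in C/EBPbeta-2 cells and 10.34, 8.69 and 9.53 in control cells, a difference of -0.58 (SE 0.47, limma adjusted p = 1.00). The groups overlapped, with control replicate 1 the highest of all 6 arrays and C/EBPbeta-2 replicate 3 the lowest. The difference was -0.17 without control replicate 1, -0.998 without control replicate 2 and -1.09 over the 4 arrays of lower 18S level. Its dim probe set 1561080_at lay below every array median and differed by -0.22. SRXN1 (225252_at) gave 9.74, 10.10 and 9.65 in C/EBPbeta-2 cells and 9.15, 9.67 and 9.52 in control cells. Here only C/EBPbeta-2 replicate 3 lay below a control array, by 0.03, and the difference was 0.38 (95% interval -0.12 to 0.88, limma adjusted p = 1.00). It was 0.10 at the high spike level and 0.95 at the low one, and 0.23 to 0.495 as each array was left out.

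**Figure D4:**
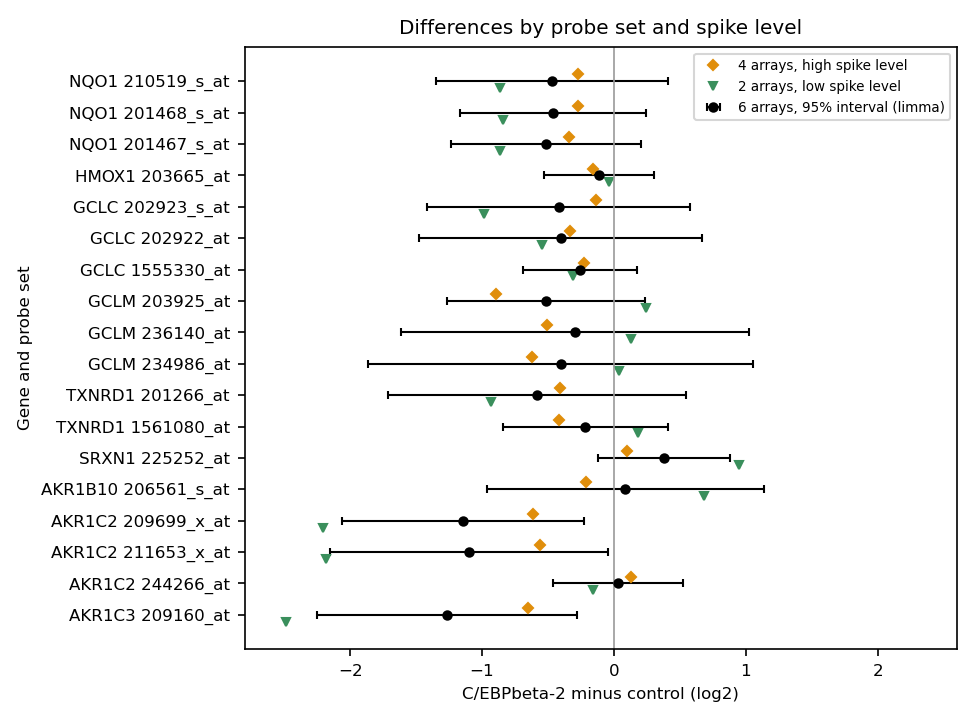
Log2 difference, C/EBPbeta-2 minus control (horizontal axis), of each member probe set (vertical axis): black points with 95% intervals from limma over 6 arrays, orange diamonds from the 4 arrays of high spike level and green triangles from the 2 arrays of low spike level. The AKR1C2 and AKR1C3 differences are -0.56 to -0.66 at the high level and -2.18 to -2.49 at the low one for the bright probe sets, and only these 3 intervals leave out 0.

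The regulators of the pathway gave no call either. Each gene outside the members was read at its brightest single-gene probe set and adjusted over 19775 genes, of which limma called 52 (0.263%, with 0.0961% higher and 0.167% lower). In the list of 13 measured NRF2 regulators limma made 0 calls, and 0 genes had an unadjusted p under 0.05 (5.4% of all genes did, 2.74% lower). Their median difference was -0.07, against 0.009 over all genes. NFE2L2 (201146_at) gave 9.89, 10.56 and 9.82 in C/EBPbeta-2 cells and 10.72, 9.51 and 10.38 in control cells, a difference of -0.11 (95% interval -0.98 to 0.75). Its dimmer probe sets 1567013_at and 1567015_at differed by 0.19 and -0.12, also with overlap. KEAP1 (202417_at) gave 8.25, 8.44 and 8.69 in C/EBPbeta-2 cells and 8.37, 8.44 and 9.09 in control cells, a difference of -0.17. Neither separated the groups. The largest differences in this list were in BACH1, a repressor of antioxidant response elements (0.67), SQSTM1, the autophagy receptor that binds KEAP1 (-0.47), and NFE2L1, a relative of NRF2 (-0.40), none called (limma adjusted p = 1.00, 0.936 and 1.00). SQSTM1 was lower without overlap (limma unadjusted p = 0.0511). The groups were also apart in DPP3 (-0.26) and, in the other direction, in MAFG (0.13). NRF2 is controlled mainly at the protein level, which these arrays did not measure.

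ALDH3A1, an aldehyde dehydrogenase of barrier epithelia, fell in C/EBPbeta-2 cells and was the only called gene of the pathway lists. Its probe set 205623_at gave 6.21, 5.23 and 5.34 in C/EBPbeta-2 cells and 8.59, 7.78 and 8.48 in control cells, so that every C/EBPbeta-2 array was below every control array. The difference was -2.69 (SE 0.34, limma adjusted p = 0.0496 over genes and 0.0891 over all probe sets), a fold of 6.46, with -2.36 at the high spike level. The call was narrow: it was lost without any one of the 6 arrays (adjusted p 0.0555 to 0.276) and held in 6 of 18 alternatives (adjusted p 0.00955 to 0.389). It was 1 of 36 other measured NRF2 targets, 0 of which were called higher. The list had 6 genes at a limma unadjusted p under 0.05, 3 lower and 3 higher. Of all genes, 5.4% reached it (2.74% lower). The median difference of the list was 0.08. BLVRB, a biliverdin reductase, read 7.66, 7.09 and 7.40 in C/EBPbeta-2 cells and 8.59, 8.42 and 8.80 in control cells, without overlap, but its difference of -1.22 was not called (limma adjusted p = 0.124), and of 18 alternatives it was called with array weights alone (limma adjusted p = 0.0349). PTGR1, a prostaglandin reductase, differed by 0.92 (limma adjusted p = 1.00), and by 0.40 without control replicate 2.

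**Figure D5:**
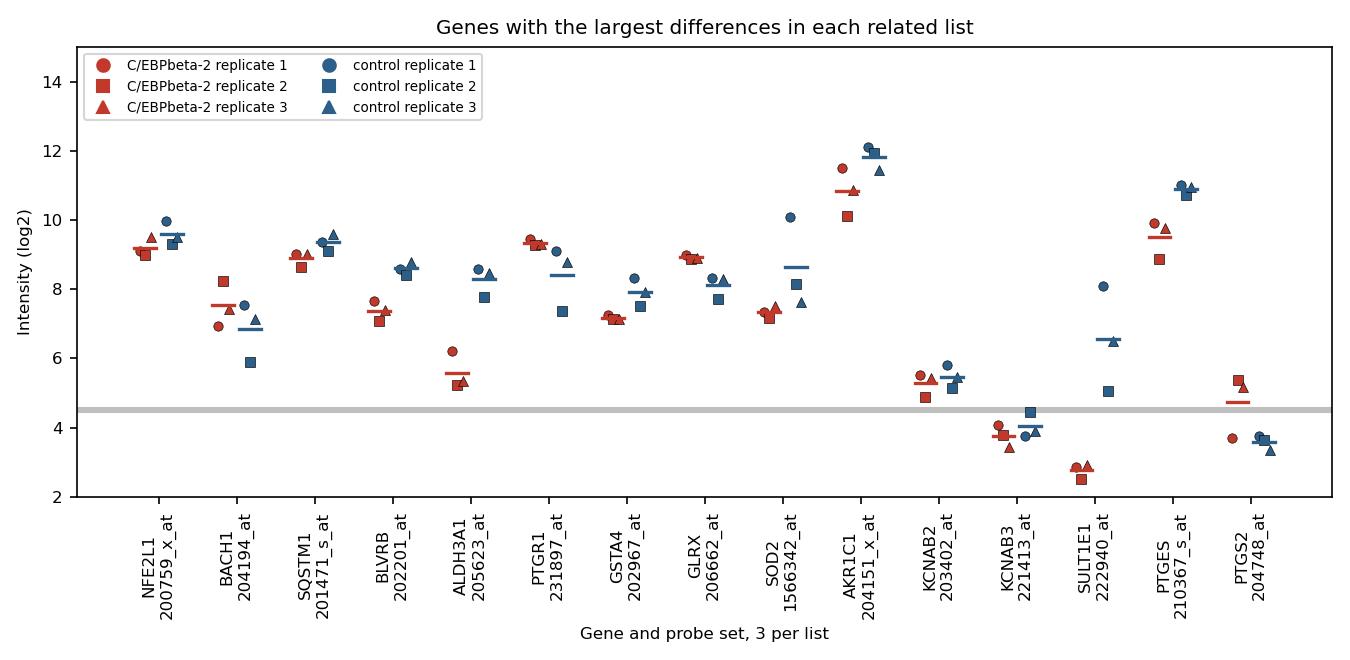
Log2 intensity (vertical axis) of the 3 genes with the largest differences in each of the 5 related lists (horizontal axis, 3 genes per list), C/EBPbeta-2 arrays in red (left) and control arrays in blue (right), with bars at group means and a grey band at the array medians. ALDH3A1 and BLVRB are lower on every C/EBPbeta-2 array, and SULT1E1 lies below the array medians on all 3 of them.

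None of 37 other glutathione and thioredoxin enzymes passed the limma test, 5 had an unadjusted p under 0.05, and their median difference was 0.004. The largest differences were in the manganese superoxide dismutase SOD2 (1566342_at; -1.29, and -0.56 without control replicate 1), the glutaredoxin GLRX (0.81) and the glutathione transferase GSTA4 (-0.74), with limma adjusted p of 1.00, 0.365 and 0.581. GLRX read 8.99, 8.88 and 8.90 in C/EBPbeta-2 cells and 8.32, 7.72 and 8.29 in control cells, without overlap. Of the 5 genes at an unadjusted p under 0.05 in limma, 3 were lower, where 5.4% of all genes reached it (2.74% lower).

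None of 9 other measured aldo-keto reductases passed either, only AKR1C1 had an unadjusted p under 0.05, and their median difference was -0.10. After AKR1C1 the largest differences were in the potassium channel beta subunits KCNAB3 (-0.27) and KCNAB2 (-0.19). KCNAB3 and AKR1C4 lay below every array median. Of the 24 steroid, retinoid and prostaglandin enzymes that act beside the AKR1 enzymes, 5 had a limma unadjusted p under 0.05, 4 lower. Among all genes, 5.4% reached it (2.74% lower). The 24 enzymes gave 0 limma calls and a median difference of 0.005. Their largest difference was in SULT1E1, the estrogen sulfotransferase (222940_at), which gave 2.86, 2.53 and 2.91 in C/EBPbeta-2 cells and 8.10, 5.06 and 6.52 in control cells. The groups were far apart, but the control arrays spread by over 3 log2 units, and the difference of -3.79 (SE 0.70) was not called (limma adjusted p = 0.171). It was called in 3 of 18 alternatives, with the ACTB covariate, with array weights and without control replicate 2 (limma adjusted p 0.0382 to 0.545 over all 18, and 0.0478 without control replicate 2). The C/EBPbeta-2 level lay below every array median, so the size of this fold is uncertain. PTGES, a prostaglandin E synthase, differed by -1.38 without overlap (limma adjusted p = 0.243) and PTGS2, the inducible cyclooxygenase, by 1.16 (limma adjusted p = 0.834).

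Genes whose pattern over the 6 arrays was most like that of AKR1C3 were sought among 8749 genes outside the members with a mean log2 of at least 6. The 5 with the highest Pearson's r were SNHG32 (0.98), WFDC21P (0.97), TIMP3 (0.96), FOXQ1 (0.96) and H2BC5 (0.95), with AKR1C1 at 0.90. They were picked as the highest of many over 6 arrays, so the values describe likeness only. All 5 had lower means in C/EBPbeta-2 cells, from -0.48 in SNHG32 to -2.25 in FOXQ1, and none was called (limma adjusted p 0.171 to 0.898). Picking them for likeness to AKR1C3, which was lower without overlap, all but fixed this direction in advance.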

How the data were processed

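Affymetrix arrays of 6 samples were analysed, 3 of MCF10A cells with C/EBPbeta-2 and 3 of control cells, grouped by the sample titles. The authors deposited an intensity per probe set and array from RMA (robust multi-array average), per the submitters' processing notes, with version and settings not stated there. These deposited intensities are linear (4.17 to 17825, array medians 22.0 to 23.6). They were log2-transformed without a pseudocount or any normalization beyond the deposited one. Precision is limited by the number of arrays, and no detection calls were used.

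The 62 control probe sets were set aside and 54613 tested with limma 3.58.1 (lmFit and eBayes, R 4.3.3), C/EBPbeta-2 minus control, two-sided, no covariate, Benjamini-Hochberg adjusted over all probe sets. Genes were read at the single-symbol probe set with the highest mean and the same p-values adjusted over 19775 genes. Means, permutation tests and promoter searches used Python 3.11.15, scipy 1.17.1 and Biopython 1.88. Biopython aligned promoters globally with free end gaps. The fit was tested on simulated data with noise independent between arrays and added differences larger than that of any member. That test therefore does not cover differences of the size seen in the members, or arrays that vary together. The members, lists, alternatives and naming rule were chosen with earlier results of these data known. The rule names all members, NFE2L2, KEAP1, CEBPB, the called genes and the 3 largest differences within each related list, and the 5 genes most like the member with the largest difference. AKR1C4, DPP3, MAFG, MT1G, MT1X, HSD11B2, SRD5A1 and the marker genes were named outside it, after their values were seen. The alternatives left out each array, added the replicate number, spike level or ACTB value to the fit, and changed the normalization, filter, variance prior, weights, pseudocount or probe sets.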

Additional observations from a re-analysis of the deposited data

How the results depend on the processing

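No member was called under any of 18 alternative fits or at 1 probe set per gene. The lowest adjusted p of limma was 0.277 (AKR1C3 with array weights). Some of these settings held fewer members: 11 without _x_at or _s_at probe sets, 15 with dim probe sets left out and 9 at 1 probe set per gene. The count of 36 called probe sets was 5 to 37 as each array was left out, 0 with the replicate block, 17 with a pseudocount of 16, 67 with a trended and robust prior, 78 with dim probe sets left out, 78 with the ACTB covariate and 122 with array weights. Chosen after seeing the data were fits on 4 arrays, which called 6 at the high spike level and 0 at the lower 18S level. The 1 call among other NRF2 targets, ALDH3A1, became 0 with arrays centred on their medians, with the replicate block and without each array in turn (0 to 0). ALDH3A1 was also not called with the spike level in the fit, with the pseudocount of 16 and in either fit on 4 arrays. The 0 steroid, retinoid and prostaglandin enzymes became 0 to 1 as each array was left out (SULT1E1, which was also called with the ACTB covariate and with array weights). BLVRB was called with array weights. The cause was not tested.

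Signs turned for some members, with differences that ranged in size from 0.03 in AKR1C2 244266_at to -0.40 in GCLM 234986_at. AKR1B10 (0.09) was -0.21 at the high spike level, -0.053 at the lower 18S level, -0.24 with array weights and -0.29 to 0.43 as each array was left out (-0.25 without C/EBPbeta-2 replicate 2, -0.29 without control replicate 2). AKR1C2 244266_at (0.03) was -0.22 at the lower 18S level, -0.11 with array weights and -0.13 to 0.18 with an array left out (-0.13 without C/EBPbeta-2 replicate 1, -0.06 without control replicate 2). HMOX1 was 0.037 and TXNRD1 1561080_at 0.095 at the lower 18S level, TXNRD1 also 0.070 without control replicate 2 (lowest -0.39). Without C/EBPbeta-2 replicate 1, GCLM 236140_at was 0.18 (lowest -0.75) and 234986_at 0.10 (lowest -0.998). The other 309 member values of these alternatives kept sign and side. The low spike level, 1 array against 1, is not counted among them. There GCLM 203925_at (-0.52), among others, turned to 0.24.

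Deviations from the group means correlated at r of -0.45, -0.55 and 0.42 between equal numbers 1, 2 and 3. The replicate numbers 1 and 2 thus did not pair the arrays, and number 3 did so in part at most. Deviations of the 3 arrays of a group sum to 0, so these r are not independent of each other. Between C/EBPbeta-2 replicate 2 and control replicate 1, the arrays of low spike level, r was 0.66. Between C/EBPbeta-2 replicate 1 and control replicate 2, the arrays of highest 18S level, r was 0.64. The replicate block joined equal numbers, so its fit did not follow these likenesses. Precision is limited by 3 arrays a group, and the 95% intervals of 15 of 18 members held 0.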

Other observations

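One further probe set, 1555854_at, is annotated to both AKR1C1 and AKR1C2 and belongs to neither gene's count. It gave 3.66, 4.43 and 4.70 in C/EBPbeta-2 cells and 6.90, 4.47 and 6.02 in control cells, a log2 difference of -1.54 (SE 0.62, limma adjusted p = 1.00, -1.07 at the high spike level). The groups overlapped, since control replicate 2 lay below C/EBPbeta-2 replicate 3. Unlike the 4 bright AKR1C1 and AKR1C2 probe sets, its lowest array was C/EBPbeta-2 replicate 1.

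Among other measured genes chosen after their values were seen, the metallothioneins MT1G and MT1X, metal-binding proteins that metals and glucocorticoids induce, read higher in C/EBPbeta-2 cells without overlap, by 0.66 and 0.76 (limma adjusted p 0.334 and 0.559). Both were read at _x_at probe sets (204745_x_at and 208581_x_at), whose probes can bind related transcripts, so they may not be readings of separate genes. HSD11B2, which inactivates cortisol, and SRD5A1, a steroid 5-alpha-reductase, read lower without overlap, by -1.15 and -0.88 (limma adjusted p 0.265 and 0.607). None of the 4 was called.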
